A study of Mus musculus with 6 samples.

Results

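Notch signalling was examined in satellite cells, which are the stem cells of skeletal muscle, through 10 genes of the pathway: the receptors Notch1, Notch2 and Notch3, the ligands Dll1 and Jag1, the nuclear effector Rbpj, and the Hes and Hey genes Hes1, Hes6, Hey1 and Heyl. The genes were chosen by name, and all 10 were found among the 23420 genes of the deposited table. RNA sequencing covered 3 control samples and 3 samples labelled Dnmt1 KO, which lack the enzyme that copies DNA methylation onto newly made strands. Per the labels, mice were bred from the Pax7-CreERT2 and Dnmt1 flox lines on a C57BL/6 background, were males aged 7 weeks, and were given tamoxifen or vehicle on 5 days in a row. Cre recombinase fused to an oestrogen receptor is driven here by Pax7, so that tamoxifen removes Dnmt1 in Pax7-positive cells and their descendants. The labels do not say which samples received tamoxifen or whether control mice carried Cre, nor whether each sample is a separate animal. The p-values therefore rest on a spread between samples that may be technical.

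Notch receptors on one cell are bound by Delta-like or Jagged ligands on a neighbouring cell. Binding lets ADAM proteases and gamma-secretase cut the receptor, and the freed intracellular part enters the nucleus, joins the DNA-binding protein RBPJ and a Mastermind co-activator, and switches on Hes and Hey genes. In mouse muscle this pathway is known to keep satellite cells quiescent and undifferentiated, and loss of Rbpj in satellite cells is known to deplete them. Hes6 stands apart from the other members, since in mouse its protein is known to inhibit Hes1 and to favour myogenic differentiation.

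Values are scaled read counts as deposited, that is, read counts multiplied by 1 factor per sample. The libraries held 954786 to 2021725 reads. Dnmt1 itself fell in all 3 knockout libraries (log2 fold change -3.29, SE 0.27, limma adjusted p = 0.00121). The satellite cell markers Pax7, Myf5, Myod1, Itga7 and Cdh15 were present in every library, and 10 of 11 markers on that list were high enough to test. Chodl, the other one, was at 0 in all 3 knockouts and between 0.952 and 3.46 in controls. Per kilobase of exon, Myod1 averaged 754 over the 6 libraries, against 20.8 for Pax7. Whether the cells were quiescent or activated was not tested. Among the 10 tested, each knockout value of Pax7, Myf5 and Myod1 lay below each control value, as in 7.81% of all genes tested. The log2 fold change was -0.85 for Pax7 (limma adjusted p = 0.0441), -0.77 for Myf5 (0.184) and -0.35 for Myod1 (0.331). Pax7 was the only marker of the list to pass, and 6 of the 10 had a positive log2 fold change. Of 12591 genes tested by limma with Benjamini-Hochberg adjustment, 210 (1.67%) were higher and 12 (0.0953%) lower in Dnmt1 KO at an adjusted p under 0.05.

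Control replicate 2 stood apart in markers of muscle differentiation, and the results that it moves most are also given without it. The summed value of 13 such markers, among them Myog, the factor that drives differentiation, and Myh3, the embryonic myosin, was 14759 in that library, against 1201 and 798 in control replicates 1 and 3. The knockout libraries lay between these, at 5874, 5180 and 1686 in replicates 1, 2 and 3. Of the 13 markers, 0 passed with all libraries and 6 passed as higher without control replicate 2. In the fit without it, 5.3% of all genes tested were higher and 0.916% lower. Of the satellite cell markers, 2 were called lower without that library, Pax7 (limma adjusted p = 0.0114) and Myf5 (0.0140). Another 2 were called higher, Cdh15 (0.00279) and Megf10 (0.0182). In bulk RNA, more cells of a kind and more RNA per cell cannot be told apart.

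No member of the pathway differed between Dnmt1 KO and control at the adjusted threshold: 0 of 10 were higher and 0 lower. Of all genes tested, 1.67% were higher and 0.0953% lower, so a count of 0 among 10 says little about the pathway. 1 member had an unadjusted p under 0.05, against 15.5% of all genes tested. Without control replicate 2 these were 5 members (Notch1, Notch3, Dll1, Hey1 and Heyl), against 22.3%. Adjusted p-values of the 10 ran from 0.284 to 0.994. The deposited q-values, from the authors' own test in the authors' deposited table, had a lowest value of 0.987 among members. The log2 fold change was positive for 9 members and negative for Rbpj, with a median of 0.20, against a median of 0.02 and 52.4% positive over all genes tested. The median was 0.50 without control replicate 2, against 0.02 over all genes tested. Across the 15 alternative settings and left-out libraries, 148 of 150 values for members stayed short of the threshold, and both exceptions, Notch1 and Notch3, arose without control replicate 2.

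**Figure D1:**
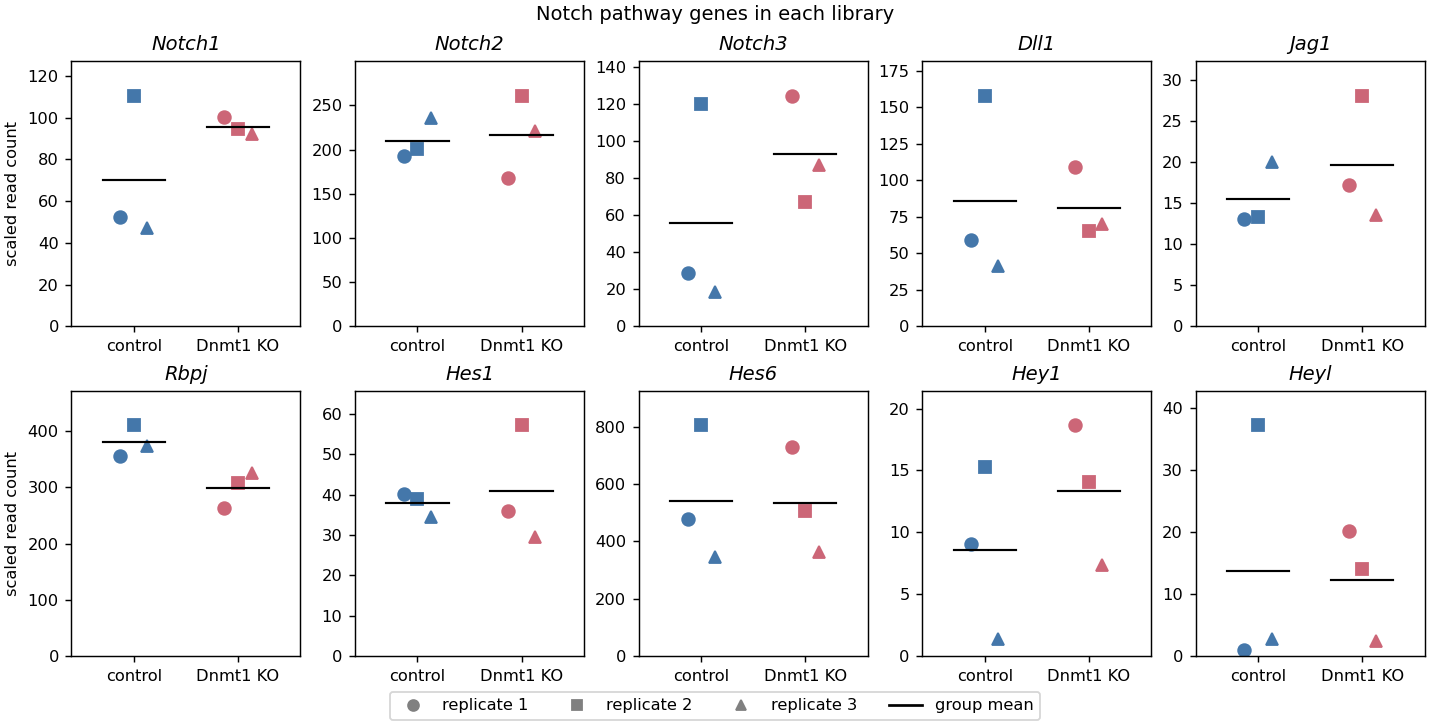
Scaled read count (vertical axis, separate scale from 0 for each gene) of the 10 Notch pathway genes in 3 control (blue) and 3 Dnmt1 KO (red) libraries. Symbols give the replicate and lines the group mean. Control replicate 2 (blue square) is the highest control in 7 of 10 genes, and Rbpj is the gene whose groups do not overlap.

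Levels of different genes were compared per kilobase of exon. Hes6 was by far the most abundant member, with a mean over the 6 libraries of 403 units per kilobase, followed by Rbpj at 58.4. Both held their place in all 6 libraries. Hes1 (27.1 per kilobase), Dll1 (24.5) and Notch2 (20.3) came next and could not be ordered, since Hes1 exceeded Dll1 in 3 of 6 libraries and Dll1 exceeded Notch2 in 2 of 6. Notch3 (9.38) and Notch1 (8.72) also changed places, with Notch3 the higher in 3 of 6. Notch2 was thus the leading receptor in every library. Hey1 (4.97), Jag1 (3.19) and Heyl (2.85) were lowest, with overlapping ranges.

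Notch2, the receptor with the highest level, gave 193, 201 and 236 across control replicates 1, 2 and 3, against 168, 261 and 222 across Dnmt1 KO replicates 1, 2 and 3. The groups overlapped fully, with means of 209.8 ± 22.9 and 217 ± 46.7 (SD, n = 3 each). It differed by 0.03 on the log2 scale, with a 95% interval from -0.38 to 0.44 (limma adjusted p = 0.959). This interval leaves room for differences of up to 1.36-fold.

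Notch1 showed a different arrangement, with tightly grouped knockouts and 1 high control. Controls 1, 2 and 3 gave 52.2, 110.5 and 47.0, and knockouts 1, 2 and 3 gave 100.4, 94.3 and 92.3. Control replicate 2 exceeded every knockout library, and the other controls lay below all of them. On the log2 scale the difference was 0.55 (SE 0.29, limma adjusted p = 0.406), with a 95% interval from -0.10 to 1.21. Without control replicate 2 it was 0.94 (SE 0.20, adjusted p = 0.0145), and Notch1 passed the test. That library was the highest for Notch1, so leaving it out raises the difference. All knockouts then also exceeded the remaining controls in summed differentiation markers, at 1686 to 5874 against 798 and 1201. Notch1 was at 0.40 without control replicate 1 (adjusted p = 0.746) and 0.33 without control replicate 3 (adjusted p = 0.767).

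Notch3, a receptor known from vascular mural cells and also found on satellite cells, followed the same arrangement with a wider span. The 3 controls gave 29.1, 120.0 and 18.7, and the 3 knockouts 125, 67.2 and 87.4. Control replicate 2 was 5.02 times the mean of the other controls and lay within the knockout range. The log2 fold change was 1.13 (SE 0.56, limma adjusted p = 0.371), or 1.91 without control replicate 2 (SE 0.29, adjusted p = 0.00175). It was 0.90 without control replicate 1 (adjusted p = 0.705) and 0.60 without control replicate 3 (adjusted p = 0.745). Control replicates 1 and 3 averaged 23.9, against 93.1 ± 29.2 in the 3 knockouts. Without control replicate 2, 5.3% of all genes tested were called higher, so the count of 2 members out of 10 stands against that background. Of those 10 members, Notch1, Notch3 and Dll1 had all knockouts above control replicates 1 and 3, as did 23.1% of genes, and Rbpj had all below, as did 17.8%.

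Notch3 and Acta2 are also expressed by pericytes and smooth muscle. Of 8 markers of those cells, 5 were high enough to test and 0 passed, against 1.76% of all genes tested. Without control replicate 2, as for Notch3, 3 passed as higher: Cspg4 (2.04 on the log2 scale, limma adjusted p = 0.004), Des (1.21, adjusted p = 0.00771) and Acta2 (1.19, adjusted p = 0.0384). Kcnj8 was at 0 in all 6 libraries, and Rgs5 was at 0 in all but control replicate 3 (0.691) and knockout replicate 2 (3.01). The summed level of the 8 was 1150 to 3111 in controls and 1976 to 3994 in knockouts, most of it from Des and Acta2, which muscle cells express too. Endothelial markers, which bear on Notch1, summed to 6.67 to 22.1 in controls and 13.5 to 20.1 in knockouts over 9 genes, and Dll4, the endothelial ligand, was at 0 in all 3 controls. Summed markers of the fibroblast-like progenitors of muscle (Pdgfra, Gsn and others) were at 74.0 to 205 in controls and 292 to 643 in knockouts over 9 genes. Most of that sum came from Gsn, which passed the test as higher together with Col1a1, while Lum and Dpt were at 0 in all 6 libraries. Pdgfra itself hardly differed, with means of 4.94 in controls and 5.28 in knockouts (log2 fold change 0.13, limma adjusted p = 0.953). Macrophage markers summed to 21.9 to 36.1 and 77.5 to 188 over 7 genes, mostly Laptm5, which passed as higher, with Ptprc and C1qa at 0 throughout. Schwann cell markers summed to 10.03 to 25.7 and 24.1 to 29.5 over 5 genes. The part of such cells in the Notch values was not tested.

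The ligand Dll1, which activated and differentiating myoblasts are known to present to their neighbours, gave 59.2, 158 and 41.5 across the controls, against 109, 65.2 and 70.1 across the knockouts. Control replicate 2 was again the highest library, and the groups overlapped. The means were 86.3 ± 62.8 and 81.4 ± 24.0, so the log2 fold change on the mean of logs was 0.12 while the ratio of means lay below 1 (95% interval -0.83 to 1.06, limma adjusted p = 0.924). The sign of its change was negative in 5 of the 15 alternatives, and no direction can be given. Without control replicate 2 the log2 fold change was 0.67 and the adjusted p 0.155.

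The promoters that RefSeq lists for Dll1 and Hes6 are shown at the gene start used in the deposited table. Both genes were highest in control replicate 2, as were Notch1, Rbpj and Heyl. The windows are marked for the E-box, the letters CANNTG that MyoD-family factors bind. Capitals mark the E-box on either strand. The windows run from 250 bases before to 50 after the start, in build GRCm38.p6, on the minus strand, at chr17:15375774-15376073 for Dll1 and chr1:91413173-91413472 for Hes6.
Dll1: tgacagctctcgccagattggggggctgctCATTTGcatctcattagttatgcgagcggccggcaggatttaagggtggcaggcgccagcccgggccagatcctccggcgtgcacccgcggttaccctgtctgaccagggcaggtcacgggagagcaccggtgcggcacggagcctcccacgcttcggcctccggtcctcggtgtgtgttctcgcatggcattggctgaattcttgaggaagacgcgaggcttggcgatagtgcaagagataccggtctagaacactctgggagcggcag
Hes6: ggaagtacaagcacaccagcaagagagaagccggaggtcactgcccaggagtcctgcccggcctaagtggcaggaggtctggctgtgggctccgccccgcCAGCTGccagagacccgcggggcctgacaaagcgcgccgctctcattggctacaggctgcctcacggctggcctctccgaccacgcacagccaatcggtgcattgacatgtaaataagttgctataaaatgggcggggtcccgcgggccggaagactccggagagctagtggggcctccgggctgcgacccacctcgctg
Each window held 1 E-box, CATTTG in Dll1 and CAGCTG in Hes6. The letters are common, being present in 72.3% of 32851 mouse promoter windows of this length. A 2nd listed start of each gene, further upstream, had 3. Neither Dll1 nor Hes6 held the letters TGGGAA, the core of the RBPJ site, in any listed window, and 25.6% of all windows did. Of the other members, the listed windows of Notch1, Notch2 and Notch3 held 0 E-boxes, that of Jag1 held 1, and those of Rbpj 2 and 0. A part of E-boxes in the levels was not tested.

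Jag1, the other ligand, was low, with controls at 13.04, 13.3 and 20.1 and knockouts at 17.2, 28.1 and 13.5. These values rest on 11 to 29 reads per library. The groups overlapped, and control replicate 2 did not stand out. The knockouts differed by 0.29 on the log2 scale (95% interval -0.52 to 1.09, limma adjusted p = 0.743), which leaves room for differences of up to 2.13-fold.

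Rbpj, through which all 4 mammalian Notch receptors act, was the member with the smallest p-value. Controls 1, 2 and 3 gave 356, 410.4 and 374, and knockouts 1, 2 and 3 gave 264, 308 and 326. Every knockout library lay below every control, as in 7.81% of all genes tested. The means were 380.2 ± 27.7 and 299 ± 32.1 (SD, n = 3 each), a log2 fold change of -0.35 (SE 0.14, unadjusted p = 0.0378, adjusted p = 0.284, limma). It stayed between -0.41 and -0.26 over the 15 alternatives and passed in none of them, with adjusted p-values of 0.119 to 0.529. It was -0.29 without control replicate 2 (unadjusted p = 0.0955), with a 95% interval from -0.64 to 0.06. Of the 50-base words of its transcripts, 10.3% occur in other genes, mostly the pseudogene Rbpj-ps3, and reads from these could be split in counting.

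Among 8034 genes with a mean of at least 20, those whose log2 values over the 6 samples were most like those of Rbpj were Atxn2l, which encodes an RNA-binding protein, and the chromatin remodelling genes Ep400 and Smarca4. Their Pearson correlations with Rbpj were 0.998, 0.983 and 0.982, which describe the best matches of many and carry no test. All 3 were lower in every knockout than in any control, with log2 fold changes of -0.26, -0.25 and -0.34, and none passed the limma test (adjusted p of 0.401, 0.454 and 0.289).

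Rbpj was the member with RBPJ core letters in a listed promoter. Its window at chr5:53590096-53590395 (GRCm38.p6, plus strand, RefSeq) is shown for that reason, with TGGGAA in capitals on either strand. This start lies 34567 bases inside the gene as the deposited table draws it.
Rbpj: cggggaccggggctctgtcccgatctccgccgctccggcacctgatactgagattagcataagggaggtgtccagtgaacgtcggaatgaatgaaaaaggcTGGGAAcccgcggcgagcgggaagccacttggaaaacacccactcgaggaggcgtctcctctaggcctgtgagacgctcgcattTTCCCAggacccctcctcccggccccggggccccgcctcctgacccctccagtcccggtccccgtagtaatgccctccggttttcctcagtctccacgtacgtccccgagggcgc
The letters occurred 2 times, 1 on each strand, with no overlap with either of the 2 E-boxes of the window. Promoter windows were listed for 7 of the 10 members, and Hes1, Hey1 and Heyl were not among them.

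Hes1, the repressor that is a classic direct target of Notch, hardly differed. The controls gave 40.1, 39.0 and 34.6 and the knockouts 35.8, 57.2 and 29.5, with knockout replicate 2 the highest and knockout replicate 3 the lowest library. The log2 fold change was 0.05 (95% interval -0.56 to 0.66, limma adjusted p = 0.949). Unlike Notch1, Notch3, Dll1, Hes6, Hey1 and Heyl, it was not raised in control replicate 2, which was 1.05 times the mean of the other controls.

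Hes6, the most abundant member, gave 477, 805 and 345 across the controls, against 728, 508 and 364 across the knockouts. Its order over the libraries put control replicate 2 first and knockout replicate 1 next, and control replicate 3 last. Myog had the same first, second and last library, with 1821, 905 and 5.53. The means were 542 ± 237 and 533 ± 183, and the log2 fold change was 0.01 (95% interval -0.70 to 0.71, limma adjusted p = 0.994). Under 7 of 15 alternatives, including TMM and median-of-ratios scaling, the sign was negative.

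Hey1, a repressor that RBPJ activates directly, was scarce, with controls at 9.03, 15.2 and 1.38 and knockouts at 18.6, 14.05 and 7.38, from 2 to 16 reads per library. Its groups overlapped. Its log2 fold change was 0.89 (95% interval -0.60 to 2.39, limma adjusted p = 0.557), and 1.47 without control replicate 2 (adjusted p = 0.175).

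Heyl, known in mouse as a Notch target of satellite cells, spanned the widest relative range of the 10. The controls gave 1.003, 37.1 and 2.77, and the knockouts 20.1, 14.05 and 2.46. These values come from 1, 39 and 4 reads and from 14, 14 and 2 reads. Control replicate 2 was 19.7 times the mean of the other controls, and knockout replicate 3 lay with control replicates 1 and 3. The difference was 0.64 on the log2 scale, with an interval from -1.65 to 2.94 (limma adjusted p = 0.804), and 1.91 without control replicate 2 (adjusted p = 0.129). On the mean of the raw values the knockouts were the lower group, at 12.2 ± 8.95 against 13.6 ± 20.4, and edgeR and DESeq2 on recovered reads gave negative log2 fold changes.

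**Figure D2:**
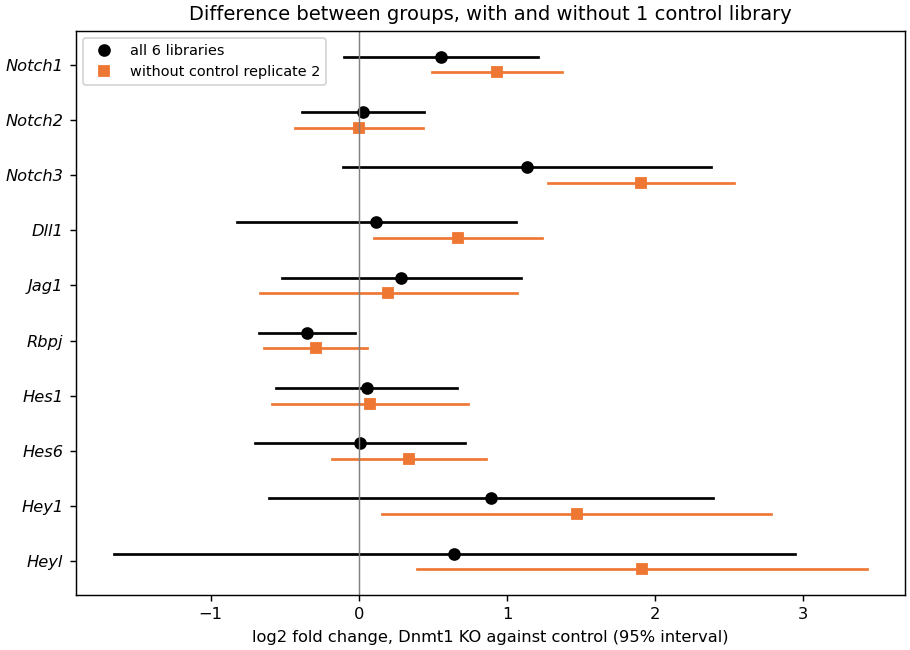
Log2 fold change of Dnmt1 KO against control (horizontal axis) with its 95% interval from limma for each Notch pathway gene, with all 6 libraries (black circles) and without control replicate 2 (orange squares). The intervals are not adjusted for the number of genes. With all libraries, all but that of Rbpj include 0, and Notch1, Notch3, Dll1, Hey1 and Heyl move clear of 0 without that control, while Rbpj then includes 0.

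Control replicate 2 was the highest control for 7 of 10 members, against 36.1% of all genes tested, and the highest of all 6 libraries for 5, against 16.5%. The 5 were Notch1, Dll1, Rbpj, Hes6 and Heyl. The same library was the highest for Myog, Myh3, Actc1 and the other 10 differentiation markers. Knockout replicate 3, with the lowest marker sum of its group, was also the lowest knockout for 6 members: Notch1, Jag1, Hes1, Hes6, Hey1 and Heyl. The share of all genes lowest in that library was not counted, so the 6 cannot be set against a background. Jag1 and Hes1 rest on 11 and 24 reads there, against 12 and 25 in knockout replicate 1. The highest Notch1 value of the group was only 1.09 times the lowest. Notch3 and Dll1 were lowest in knockout replicate 2, and Notch2 and Rbpj in knockout replicate 1. The part of differentiation state in the Notch values was not tested.

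**Figure D3:**
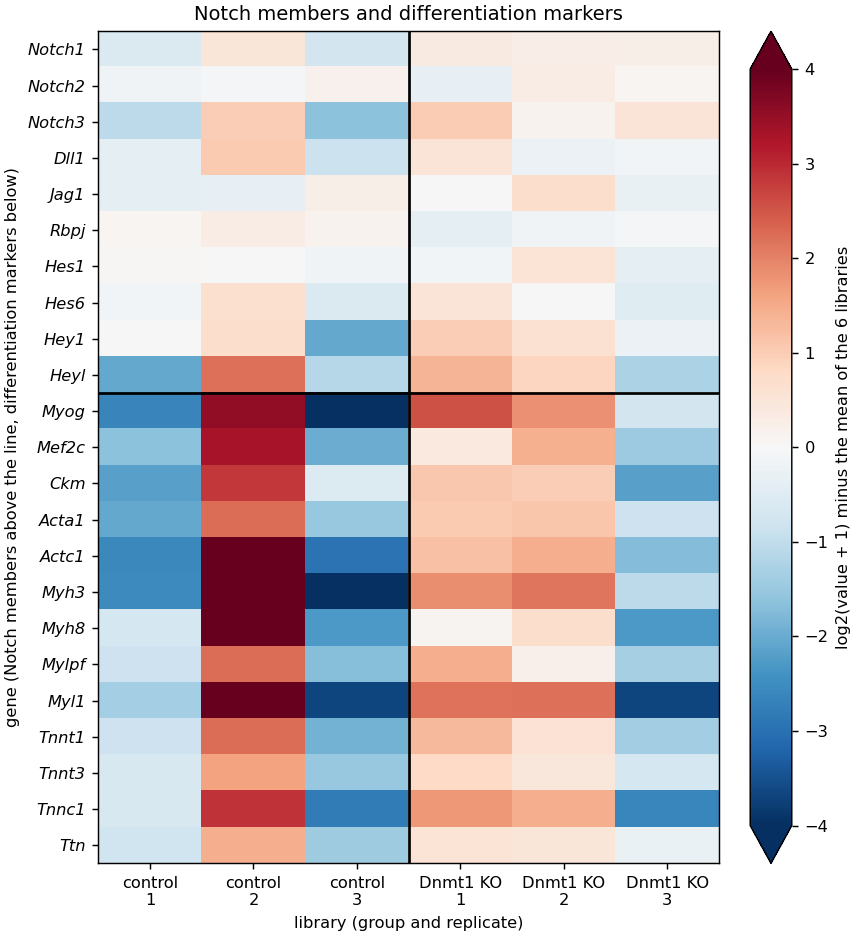
Log2(value + 1) minus the mean of the 6 libraries (colour, capped at 4 in either direction) for the 10 Notch pathway genes (above the line) and 13 markers of muscle differentiation (below) in each library. Control replicate 2 is the highest library for every marker shown, and Heyl has the strongest colour there among the Notch genes.

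Beyond the 10 members, a list of 67 further genes of the pathway was examined in 6 groups, and 55 were high enough to test. Of these, 1 rose and 1 fell, or 3.64%, against 1.76% of all genes tested. The median log2 fold change was 0.15, and 32 of 55 values were positive. Hes2, Hes3, Hes5, Hes7, Dll3 and Dtx1 were at 0 in all 6 libraries. Without control replicate 2, 4 rose and 1 fell, where 5.3% of all genes tested were higher and 0.916% lower.

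The gene that rose was L3mbtl3, which encodes a methyl-lysine reader known to bind RBPJ and to repress Notch targets with the demethylase KDM1A. Controls 1, 2 and 3 gave 29.1, 28.6 and 30.4, and knockouts 1, 2 and 3 gave 78.9, 83.3 and 72.6. The spread within each group was small, and control replicate 2 did not stand apart. The means were 29.4 ± 0.956 and 78.2 ± 5.36 (SD, n = 3 each), a log2 fold change of 1.38 (SE 0.19, limma adjusted p = 0.00936), with a 95% interval from 1.93-fold to 3.52-fold. The authors' deposited table gives it a q-value of 7.69e-05. Over 15 alternatives its log2 fold change stayed between 1.34 and 1.43. With knockout replicate 1 left out the adjusted p was 0.0709 and with knockout replicate 2 left out 0.0678, so the call ended, in fits that called 13 and 19 of all genes.

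L3mbtl3 lies on chromosome 10 at 26275452 to 26375185 (mm10, minus strand, 22 exons as listed), with no exon shared with another gene of the table and 0% of its 50-base words found in other genes. Its promoter is shown with CG pairs marked, the sites that Dnmt1 methylates, a choice made after the call was seen. Capitals mark CG in the window chr10:26375170-26375469 (GRCm38.p6, minus strand, RefSeq).
L3mbtl3: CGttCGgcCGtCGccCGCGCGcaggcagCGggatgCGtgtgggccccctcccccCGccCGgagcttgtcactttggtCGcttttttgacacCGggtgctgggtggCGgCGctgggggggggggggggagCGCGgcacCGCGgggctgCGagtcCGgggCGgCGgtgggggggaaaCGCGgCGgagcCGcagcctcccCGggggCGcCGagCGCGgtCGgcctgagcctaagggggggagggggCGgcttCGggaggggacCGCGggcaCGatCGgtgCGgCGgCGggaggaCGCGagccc
The window held 44 CG pairs, against a median of 7 over all promoter windows, and 97.8% of windows had fewer. Windows of the members held 14 to 41, the most in Notch2, which did not pass the test. The listed window of Pax7, which fell, held 17. The L3mbtl3 window held neither TGGGAA nor an E-box. Methylation was not measured in these samples, and its part in the rise was not tested.

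The gene that fell was Pax7, listed here as a target because active Notch is known to raise it in mouse satellite cells. It also drives the Cre allele. The controls gave 124, 99.0 and 120.3 and the knockouts 64.5, 58.2 and 66.5 (log2 fold change -0.85, SE 0.17, limma adjusted p = 0.0441). The call ended when any library other than control replicate 2 was left out (adjusted p of 0.101 to 0.211). Those fits called 13 to 94 of all genes, and the Pax7 log2 fold change in them lay between -0.89 and -0.78. Whether control mice carried Cre is not given, so an effect of the allele and one of Dnmt1 loss cannot be told apart.

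Among the other targets, 7 of 13 genes were high enough to test. Calcr, the calcitonin receptor of quiescent satellite cells and a known target of RBPJ in mouse, was at or near 0, with means of 0.231 and 0.812. Col5a1, whose enhancer Notch is known to activate in mouse satellite cells, gave 98.3, 260.0 and 67.8 across the controls, against 166, 249.8 and 159 across the knockouts. It did not pass with all libraries (log2 fold change 0.64, limma adjusted p = 0.497) and did without control replicate 2 (1.19, adjusted p = 0.00739). Col5a2, the most abundant gene of the group, differed by -0.03 on the log2 scale (adjusted p = 0.958). Nrarp, a Notch-induced inhibitor of the pathway, stood at 1.52 and 1.63 on average, near the level of 1 or 2 reads.

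Of the enzymes that cut the receptor, 0 of 9 tested passed, against 1.76% of all genes tested. Furin, the protease of the first cut and the gene of this group with the highest level, gave 221, 339 and 221 across the controls, against 317, 394 and 276 across the knockouts (log2 fold change 0.35, limma adjusted p = 0.456). All 9 but Psenen had positive log2 fold changes.

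The glycosyltransferases that act on the receptor had negative log2 fold changes in all 4 genes tested. Of these 0 passed, against 1.76% of all genes tested. Mfng was too low to test, at 0 in all 3 controls and at 2.87, 2.01 and 0 in knockouts 1, 2 and 3. Lfng, the lunatic fringe gene, had the largest difference, with controls at 28.1, 37.1 and 15.2 and knockouts at 14.3, 11.04 and 8.61. All knockouts lay below all controls, with a log2 fold change of -1.11 (SE 0.39, unadjusted p = 0.0165, limma adjusted p = 0.202). Poglut1, which adds glucose to the receptor, had one of -0.11 (adjusted p = 0.807).

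Of the genes for endocytosis and ubiquitin transfer, 0 of 14 tested passed, against 1.76% of all genes tested. Neurl1a, a ligase gene named for Drosophila neuralized, gave 21.1, 159 and 9.68 across the controls, against 100.4, 73.2 and 23.4 across the knockouts, with control replicate 2 the highest library (log2 fold change 0.76, limma adjusted p = 0.715). Without that library it passed (1.89, adjusted p = 0.0384). Neurl1b, a low gene named after its values were seen, had the highest log2 fold change of the group and did not pass. It gave 3.01, 1.90 and 5.53 across the controls, against 17.2, 8.03 and 17.2 across the knockouts, from 2 to 14 reads per library. Its log2 fold change was 1.77 (limma adjusted p = 0.109), and 1.49 without control replicate 2 (adjusted p = 0.0949). Nedd4, the most abundant gene of the group, differed by -0.04 on the log2 scale (adjusted p = 0.942). Numb, the Notch inhibitor known to be passed unequally between daughter cells, averaged 24.3 and 36.7 with no overlap between groups and did not pass (0.56, adjusted p = 0.330); it was named after its values were seen.

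Other ligands and receptors showed no call among 4 genes tested, against 1.76% of all genes tested. Jag2 was the most abundant, with controls at 116, 160.0 and 113 and knockouts at 133, 169.6 and 145 (log2 fold change 0.21, limma adjusted p = 0.621). Dlk2, a Delta-like protein gene without the usual receptor-binding part, was lower in every knockout than in any control and did not pass (-0.65, adjusted p = 0.339). Dner, named after its values were seen, had values of 0 to 11.5, with controls 1, 2 and 3 at 0, 10.5 and 0.691. It passed when control replicate 2 was left out (2.44 on the log2 scale, limma adjusted p = 0.0369). That library was its highest control, so leaving it out raises the difference, and the remaining controls held 0 and 1 reads. Apart from L3mbtl3, none of the 17 nuclear cofactors passed, and Ctbp1, the most abundant, differed by 0.17 on the log2 scale (adjusted p = 0.636).

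**Figure D4:**
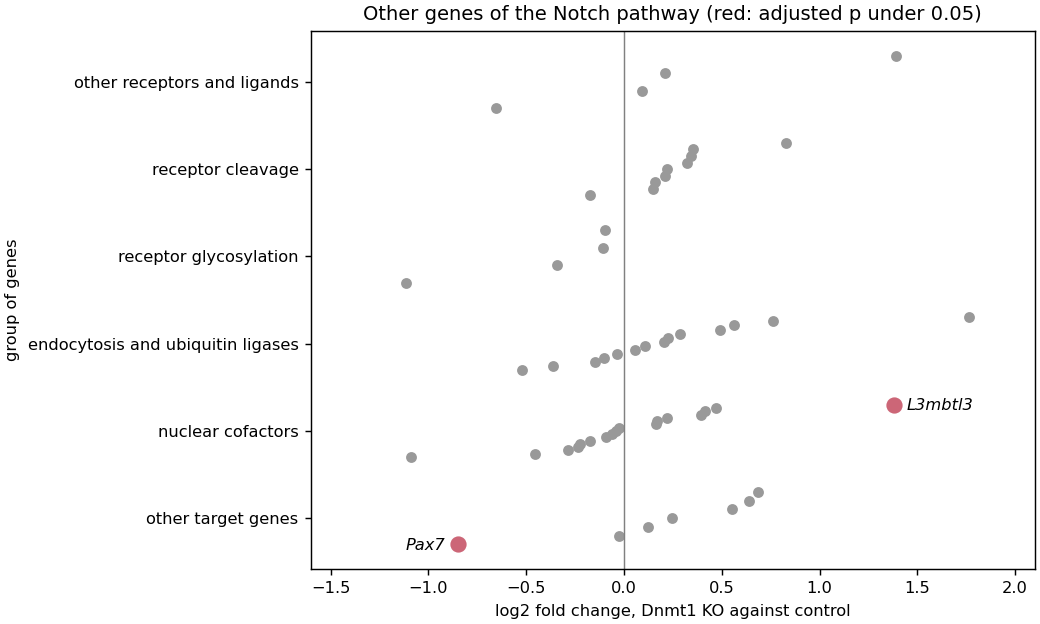
Log2 fold change of Dnmt1 KO against control (horizontal axis) for 55 tested genes of the wider Notch list, 1 point a gene, in 6 groups. Red points, L3mbtl3 at 1.38 and Pax7 at -0.85, had a limma adjusted p under 0.05, and grey points did not.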

How the data were processed

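One table was deposited by the authors, with a scaled signal per gene and sample: each value is a read count times a factor of its sample. TopHat, featureCounts and the build mm10 are named in the submitters' processing notes. For versions, annotation, strand setting and scaling, the sources used here give nothing. The authors' deposited p-value and q-value come from their own test, by a tool not named. Per the file headers, gene length is that of the counted exons.

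Every value was a whole multiple of the smallest in its library (100%, tolerance 0.001), so that reads could be recovered. Scaled totals ran from 1351539 to 1407629. The groups were compared by limma 3.58.1 (R 4.3.3, intensity trend) on log2(value + 1), in genes with at least 1 in at least 3 libraries, with adjustment over all genes tested. Fold changes on this scale understate those of low genes, and few reads limit precision. The fit was tested on simulated data.

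The members and lists were chosen with earlier results of these data known. Named were all members, listed genes past the test, and in each group the gene with the highest mean and that with the largest change at a mean of at least 10. Col5a1, Calcr, Nrarp, Numb, Neurl1b, Mfng and Dner were named after their values were seen, as were single cell type markers. CG counts were also added then. Alternatives were 3 scalings, 2 filters, a pseudocount of 0.1, replicate number as block, single libraries left out, and edgeR 4.0.16 and DESeq2 1.42.0 on the reads recovered.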

Additional observations from a re-analysis of the deposited data

How the results depend on the processing

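With edgeR on recovered reads 161 genes were higher and 8 lower, and with DESeq2 232 and 20. A pseudocount of 0.1 gave 121 higher and 6 lower and 0 lower genes in the wider Notch list. The replicate block gave 359 and 76, changed no call among members, and left L3mbtl3 and Pax7 called. Same-numbered samples deviated with correlations of -0.0576, 0.225 and 0.313, and differently numbered ones with -0.357 to 0.185. These values do not settle whether the numbers pair the samples, and the main fit took them as unpaired. Leaving out 1 library gave 12 to 659 higher and 1 to 114 lower genes, 0 to 2 members higher, and 0 to 4 higher and 0 to 1 lower in the wider list. The 659 higher and 114 lower genes came without control replicate 2 and the 12 higher genes without knockout replicate 1, and the cause was not tested.

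Members whose sign turned were never past the test. Hes6 was at -0.021 with TMM and -0.017 with median-of-ratios scaling, -0.010 with edgeR and -0.055 with DESeq2. Dll1 was at -0.072 and -0.11 with edgeR and DESeq2, and Heyl at -0.12 and -0.20. With 1 library left out, log2 fold changes ran from -0.12 to 0.20 for Notch2, -0.28 to 0.67 for Dll1, -0.21 to 0.25 for Hes1, -0.27 to 0.34 for Hes6 and -0.22 to 1.91 for Heyl. Notch1, Notch3, Jag1, Hey1 and Rbpj kept their signs in all 15 alternatives. The alternatives for L3mbtl3 and Pax7 were added after the data were examined, and Pax7 also missed the threshold with the pseudocount of 0.1 (adjusted p = 0.0584).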
